A study of Homo sapiens with 12 samples.

Results

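The NRF2 antioxidant response genes are 10 genes taken by symbol from a table of 58735 genes, namely NFE2L2, KEAP1, GCLC, GCLM, NQO1, HMOX1, TXN, TXNRD1, SRXN1 and OSGIN1. Each had 1 row in the table and all 10 were among the 16046 genes that passed the filter on low counts. RNA-seq was performed on macrophages made from the THP-1 line, a human monocytic leukemia line, by treatment with the phorbol ester PMA, and cocultured with pancreatic cancer cells across a Transwell membrane. The paper names these cancer cells as the AsPC-1 line, which the sample labels do not give. There were 4 groups of 3 libraries. In the control group (NC in the labels) the cancer cells carried an empty vector. In the OE-MMP28 group (OE) they overexpressed the metalloproteinase MMP28 from a lentiviral vector, after selection of stable cells with puromycin, with no cloning step described. The anti-IL-8 and anti-VEGFA groups were the OE-MMP28 coculture with a neutralizing antibody against IL-8 or VEGFA. PMA-treated THP-1 cells were common to every group, no group with a control antibody was among those sequenced here, and the vector cells were used in the control group only, so that vector, MMP28 and any difference between preparations of the cancer cells cannot be told apart. Nothing in the labels says that the 3 libraries of a group came from separate cultures, so the p-values measure the spread between these libraries, which may be technical.

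NRF2, encoded by NFE2L2, is a transcription factor that is kept low by KEAP1, an adaptor that brings it to a CUL3 ubiquitin ligase for degradation. When oxidants or electrophiles modify KEAP1, NRF2 accumulates, pairs with a small MAF protein and binds antioxidant response elements beside genes for glutathione synthesis, thioredoxin recycling, quinone reduction, heme breakdown and NADPH supply. In macrophages this program limits oxidative damage during the respiratory burst and dampens inflammatory gene expression. Since NRF2 is controlled mostly through the stability of the protein, the NFE2L2 transcript does not measure its activity.

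Library totals lay between 15852346 and 18701195 counts, and 3 counts corresponded to 0.160 to 0.195 CPM, the count scaled to a common library size. Mitochondrial genes took 6.92% to 17.8% of the counts, with the highest share in anti-VEGFA replicate 2. OE-MMP28 replicates 2 and 3 lay far apart on the first principal component, which held 30.6% of the variance. Summed CPM of 9 macrophage markers was 2041 to 2316 in the control group, 2198 to 3499 in OE-MMP28, 2892 to 3586 in the anti-IL-8 group and 2791 to 2966 in the anti-VEGFA group. CD68, a marker of macrophages, was counted only 0 to 5 times, although CD14 had at least 11260 counts in every library. Summed CPM of 8 epithelial markers was at most 5.15, and EPCAM was at 0 counts in all 12 libraries. MMP28 itself was at 0 counts in all 12 libraries, which checks nothing about the cancer cells, since their RNA was not the RNA sequenced.

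Of the 10 genes, all but HMOX1, that is 9, had a promoter in the RefSeq table for GRCh38.p14, in 12 windows of 250 bases before to 50 bases after a start. Windows were searched on both strands for the core of the antioxidant response element, TGACNNNGC, and for the related AP-1 element TGACTCA, which can overlap it. The core occurred in 4 of the 12 windows, of 3 genes, against 13.3% of all 35116 promoter windows, and TGACTCA in 1 of 12, that of OSGIN1, against 4.95%. The windows below hold the matches that lay wholly before a start, and are shown because NRF2 is known to act on its targets through such elements. Capitals mark the match, each line runs 5′ to 3′ along the strand of the gene, and a core match on the other strand is seen as its reverse complement.
KEAP1, chr19:10502807-10502835, minus strand: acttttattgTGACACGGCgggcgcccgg
KEAP1, chr19:10502784-10502812, minus strand: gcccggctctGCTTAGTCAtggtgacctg
GCLM, chr1:93909446-93909474, minus strand: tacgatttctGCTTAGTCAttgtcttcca
TXNRD1, chr12:104215655-104215713, plus strand: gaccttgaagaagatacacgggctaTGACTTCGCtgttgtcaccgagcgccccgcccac
TXNRD1, chr12:104286920-104286948, plus strand: gtggatttctGCTTTGTCAttctgactct
OSGIN1, chr16:83953118-83953174, plus strand: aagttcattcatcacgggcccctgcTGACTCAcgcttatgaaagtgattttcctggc
The second KEAP1 match and the GCLM match had the same 9 letters. The KEAP1, GCLM and second TXNRD1 windows touched an exon of some annotated transcript, so only 10 bases on each side are given. A match is a description of the letters and not a binding site, and no match in a window says nothing about elements farther away.

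Levels between genes were compared as FPKM, the deposited value per gene length, as mean ± SD over the 12 libraries. TXN, the small redox protein thioredoxin, was highest at 118 ± 26.8 FPKM. TXNRD1, the reductase that recharges it, followed at 28.2 ± 3.60 FPKM, then NFE2L2 at 24.1 ± 5.05, HMOX1 at 19.7 ± 3.52, KEAP1 at 18.6 ± 3.49 and GCLC at 14.6 ± 1.48 FPKM. NQO1 at 4.68 ± 0.552 and GCLM at 4.19 ± 0.687 formed a lower pair. OSGIN1 at 0.548 ± 0.234 and SRXN1 at 0.421 ± 0.241 FPKM were lowest. TXN exceeded TXNRD1, GCLC exceeded NQO1 and GCLM exceeded OSGIN1 in all 12 libraries, with no overlap of their ranges. The other neighbours in the order had overlapping ranges: HMOX1 exceeded KEAP1 in 9 of 12 libraries, and OSGIN1 exceeded SRXN1 in 8 of 12.

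**Figure D1:**
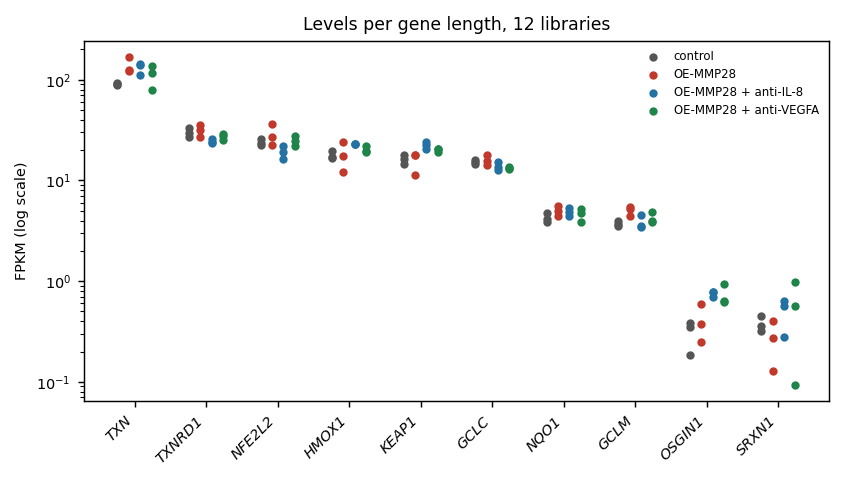
FPKM on a log scale for the 10 genes in order of their mean, 1 point per library, coloured by group. TXN at the left stands above every other gene in all 12 libraries, and OSGIN1 and SRXN1 at the right lie under 1 FPKM.

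The first comparison asks what overexpression of MMP28 in the cancer cells did to these transcripts in the cocultured macrophages. TXN and GCLM were the only members of the 10 whose OE-MMP28 libraries all lay above the control libraries, and neither passed the test after adjustment over all genes. By edgeR's quasi-likelihood test, adjusted by Benjamini-Hochberg over all genes, 0 of 10 were called at an adjusted p of 0.05, where 3.16% of all tested genes were. Libraries of the groups did not overlap for 2 of 10, against 21.3% of all genes. At an unadjusted p of 0.05 there were 2, TXN and GCLM, both higher, where 14.5% of all genes passed and 5.93% passed as higher. DESeq2 called 1, TXN, where it called 4.47% of the genes it gave an adjusted p. With limma voom 0 were called, against 3.27% of all genes. The median log2 fold change was 0.15 over the 10 genes and 0.02 over all genes tested. Of the 8 macrophage markers tested in the same comparison, 5 had values above 0 and 3 below, from -0.26 to 0.80 with a median of 0.14, and 1 was called. That one was CD14, which encodes the coreceptor for lipopolysaccharide and rose by 0.80 on the log2 scale (adjusted p = 0.0272 by edgeR's quasi-likelihood test). MUC1, 1 of 2 epithelial markers tested, fell by 1.01 (adjusted p = 0.0341), at under 4 CPM in every library. The part of these cell type markers in the changes of the 10 genes was not tested, and in bulk RNA fewer cells of a type and less RNA per cell cannot be told apart.

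TXN (ENSG00000136810, chr9:110243811-110256640, GRCh38, minus strand) was at 102, 108 and 105 CPM in the control libraries and at 140, 145 and 194 CPM in OE-MMP28. The lowest OE-MMP28 library was above the highest control library. The log2 fold change was 0.60 (SE 0.18, 95% interval 0.23 to 0.97, adjusted p = 0.0800 by edgeR's quasi-likelihood test, n = 3 per group). Leaving out anti-VEGFA replicate 1 or replicate 2, libraries of neither group compared, brought the adjusted p to 0.0256 and 0.0313. Without OE-MMP28 replicate 3, the library at 194 CPM, the log2 fold change was 0.45 (adjusted p = 0.260 by edgeR's quasi-likelihood test). With the mitochondrial share as a covariate the log2 fold change was 0.44. Reads of thioredoxin pseudogenes amounted to at most 3 counts per pseudogene and library.

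GCLM (ENSG00000023909, chr1:93885205-93909456, minus strand) encodes the modifier subunit of glutamate-cysteine ligase, the enzyme of the rate-limiting step of glutathione synthesis. It was at 21.5, 19.2 and 20.3 CPM in the control group and at 28.4, 29.9 and 24.6 CPM in OE-MMP28, with no overlap. Its log2 fold change was 0.44 (SE 0.15, 95% interval 0.14 to 0.75, adjusted p = 0.128 by edgeR's quasi-likelihood test). GCLC (ENSG00000001084, chr6:53497341-53616970, minus strand), the catalytic subunit, overlapped between the groups. It was at 128, 140 and 136 CPM in the control group against 137, 156 and 125 CPM, with a log2 fold change of 0.05 (95% interval -0.20 to 0.30).

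The ratio of GCLM to GCLC within a library, on FPKM, was 0.267, 0.220 and 0.238 in the control group and 0.331, 0.306 and 0.314 in OE-MMP28. The OE-MMP28 ratios were all above the control ratios. These ratios were chosen after the values were seen and carry no test. Under antibody the ratio was 0.273 ± 0.0212 for IL-8 neutralization and 0.319 ± 0.0448 for VEGFA neutralization (SD, n = 3).

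The remaining members overlapped between OE-MMP28 and control. NFE2L2 (ENSG00000116044, chr2:177227595-177392697, minus strand) was at 135, 142 and 158 CPM in the control group and at 162, 221 and 136 CPM in OE-MMP28, a log2 fold change of 0.25 (95% interval -0.09 to 0.60). Without OE-MMP28 replicate 2 it was 0.04, and without replicate 3 it was 0.41. HMOX1 (ENSG00000100292, chr22:35380361-35394214, plus strand) encodes heme oxygenase 1, which breaks heme into iron, carbon monoxide and biliverdin. It was at 47.9, 41.4 and 41.2 CPM in the control group and at 42.2, 29.3 and 58.7 CPM in OE-MMP28. The OE-MMP28 libraries thus held both the lowest and the highest HMOX1 level of all 12. HMOX1 had a log2 fold change of -0.0045 (95% interval -0.38 to 0.37), which moved to -0.27 when OE-MMP28 replicate 3 was left out and to 0.21 when replicate 2 was.

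KEAP1 (ENSG00000079999, chr19:10486120-10503741, minus strand) was at 67.4, 62.2 and 55.2 CPM in the control group and at 67.3, 43.0 and 68.7 CPM in OE-MMP28, where replicate 2 was the lowest of all 12 libraries. Its log2 fold change was -0.04 (95% interval -0.37 to 0.28), which moved to 0.14 without OE-MMP28 replicate 2 and to -0.15 without replicate 3. Over the 10 genes, OE-MMP28 replicate 2 was the highest of its group for 3 and the lowest for 5, and replicate 3 was the highest for 5 and the lowest for 4. The median SD of log2 CPM over the 10 genes was 0.31 in OE-MMP28, against 0.13 in the control group, 0.14 in the anti-IL-8 group and 0.17 in the anti-VEGFA group. Mitochondrial genes took 8.41%, 11.8% and 12.3% of the counts in OE-MMP28 replicates 1 to 3. Beyond leaving out each library and adding the mitochondrial share or a block for replicate number, the part of these library differences was not tested.

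**Figure D2:**
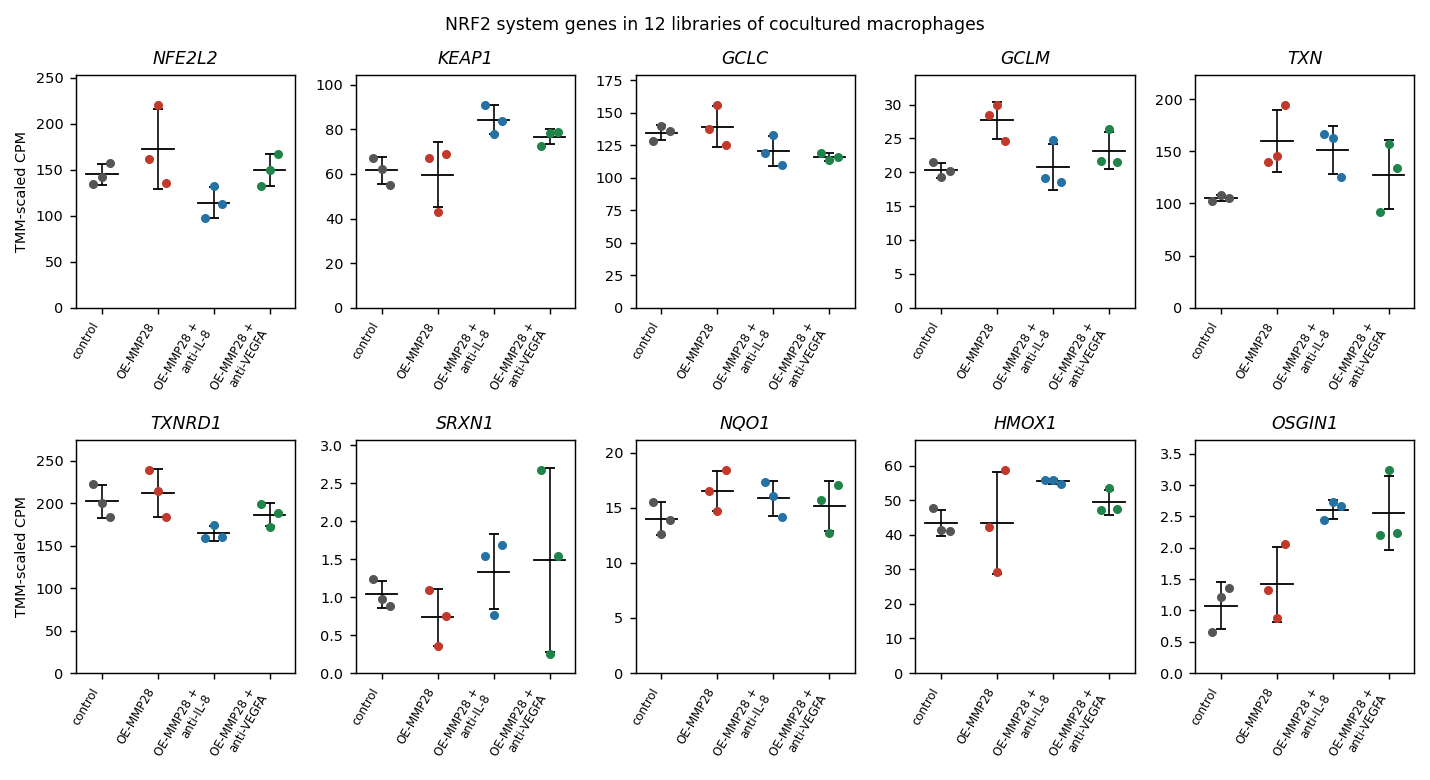
TMM-scaled CPM of each of the 10 genes in the 4 groups, 1 point per library, with the group mean as a horizontal line and the SD as a bar. OE-MMP28 (red) spreads widest for NFE2L2, KEAP1 and HMOX1, and OSGIN1 is higher in both antibody groups than in every control and OE-MMP28 library.

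TXNRD1 (ENSG00000198431, chr12:104215779-104350305, plus strand) was at 223, 200 and 184 CPM in the control group and at 239, 214 and 183 CPM in OE-MMP28, a log2 fold change of 0.07 (95% interval -0.20 to 0.33). NQO1 (ENSG00000181019, chr16:69706996-69726951, minus strand), a quinone reductase, was at 15.6, 12.6 and 13.9 CPM in the control group and at 16.5, 14.7 and 18.4 CPM in OE-MMP28. Its log2 fold change was 0.24 (95% interval -0.08 to 0.56). SRXN1 (ENSG00000271303, chr20:646615-653370, minus strand), the sulfiredoxin that restores overoxidized peroxiredoxins, had only 4 to 45 counts per library. It was at 1.24, 0.98 and 0.89 CPM in the control group and at 1.10, 0.35 and 0.75 CPM in OE-MMP28, which overlapped. At that depth its log2 fold change of -0.49 had a 95% interval from -1.73 to 0.75, so that neither direction was detectable. OSGIN1 (ENSG00000140961, chr16:83948282-83966332, plus strand), an oxidative stress induced growth inhibitor, had 11 to 51 counts per library. Its log2 fold change was 0.39 (95% interval -0.36 to 1.14), which moved to 0.64 without OE-MMP28 replicate 2 and to 0.04 without replicate 3.

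The second comparison asks what neutralizing IL-8 did in the coculture with OE-MMP28 cells. The data gave a lower level of NFE2L2 and TXNRD1 and a higher level of KEAP1 and OSGIN1 in every anti-IL-8 library than in any OE-MMP28 library, but none of the 10 passed after adjustment. edgeR's quasi-likelihood test called 0 of 10 at an adjusted p of 0.05, and 0% of all 16046 genes, the lowest adjusted p of any gene being 0.0627. At an unadjusted p of 0.05 there were 5 of 10, where 29.3% of all genes passed, and libraries did not overlap for 4 of 10, against 29% of all genes. DESeq2 called 4 of 10, NFE2L2, KEAP1, GCLM and TXNRD1, where it called 22.8% of the genes it gave an adjusted p. With limma voom 0 of 10 were called, and 0% of all genes. These counts share the OE-MMP28 libraries with the first comparison, so neither is independent of the other.

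NFE2L2 was at 97.8, 132 and 113 CPM with anti-IL-8, all under the lowest OE-MMP28 library. The log2 fold change against OE-MMP28 was -0.60 (SE 0.16, 95% interval -0.94 to -0.25, adjusted p = 0.0627 by edgeR's quasi-likelihood test). KEAP1 was at 90.9, 78.1 and 83.8 CPM, all above the highest OE-MMP28 library. For KEAP1 the log2 fold change was 0.50 (SE 0.15, 95% interval 0.17 to 0.82, adjusted p = 0.0683 by edgeR's quasi-likelihood test).

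The ratio of NFE2L2 to KEAP1 on FPKM was 1.26, 1.44 and 1.80 in the control group and 1.51, 3.22 and 1.24 in OE-MMP28. Under IL-8 neutralization it was 0.676, 1.06 and 0.850, under every control, OE-MMP28 and anti-VEGFA library, and with anti-VEGFA 1.14, 1.20 and 1.34. This ratio was chosen after the values were seen and carries no test. AGPS, a protein-coding gene on the opposite strand, overlaps the NFE2L2 locus and had 482 to 915 counts. The strand setting of the counting is not given in the sources used here, so reads of the shared stretch cannot be told apart if strand was ignored.

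TXNRD1 was at 158, 174 and 160 CPM with anti-IL-8, under all OE-MMP28 libraries and under all control libraries. The log2 fold change against OE-MMP28 was -0.37 (SE 0.13, adjusted p = 0.0812 by edgeR's quasi-likelihood test). Its locus holds the processed pseudogene RPL18AP3 on the same strand, with 589 to 1068 counts. TXN itself was at 166, 163 and 125 CPM, overlapping OE-MMP28, with a log2 fold change of -0.08 (95% interval -0.45 to 0.29). The ratio of TXN to TXNRD1 on FPKM was 3.08 ± 0.346 in the control group, 4.56 ± 1.48 in OE-MMP28, 5.42 ± 0.800 in the anti-IL-8 group and 4.09 ± 1.33 in the anti-VEGFA group (SD, n = 3), again with no test.

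**Figure D3:**
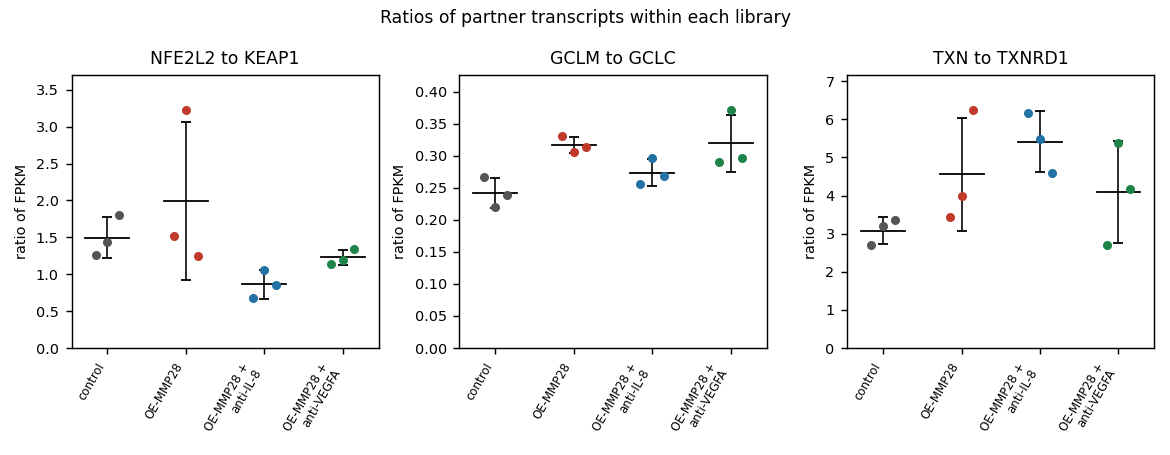
Ratios of FPKM within each library for 3 pairs of partner transcripts, by group, with mean and SD (n = 3). The NFE2L2 to KEAP1 ratio is under 1.1 in all 3 anti-IL-8 libraries and reaches 3.22 in OE-MMP28 replicate 2, and the GCLM to GCLC ratio of OE-MMP28 lies above that of the control group.

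GCLM was at 19.1, 24.7 and 18.5 CPM with anti-IL-8, overlapping OE-MMP28 through replicate 2, with a log2 fold change of -0.41 (SE 0.15, adjusted p = 0.0854 by edgeR's quasi-likelihood test). OSGIN1 was at 2.45, 2.73 and 2.66 CPM against 1.32, 0.88 and 2.06 CPM in OE-MMP28, with no overlap. Its log2 fold change was 0.88 (SE 0.33, adjusted p = 0.0965 by edgeR's quasi-likelihood test). HMOX1 was at 56.0, 55.8 and 54.8 CPM, the narrowest spread on the log2 scale of any member in any group, and lay inside the range of OE-MMP28. GCLC, NQO1 and SRXN1 overlapped OE-MMP28 too, with log2 fold changes of -0.21, -0.06 and 0.84.

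The calls depended on single libraries, for all genes as well as for the 10. Without OE-MMP28 replicate 3 the test called 6 of 10 genes, and 25% of all genes tested: NFE2L2 at a log2 fold change of -0.73, KEAP1 at 0.62, GCLM at -0.47, HMOX1 at 0.65, TXNRD1 at -0.45 and OSGIN1 at 1.25. Without OE-MMP28 replicate 2 it called 0 of 10, and 0% of all genes, and the values were smaller: NFE2L2 was at -0.38 (adjusted p = 0.295 by edgeR's quasi-likelihood test), KEAP1 at 0.31 (0.296), OSGIN1 at 0.64 (0.397) and HMOX1 at 0.14 (0.661). Without anti-VEGFA replicate 2 it called 2 of 10, and 7.08% of all genes. With the mitochondrial share as a covariate it called 3, NFE2L2, KEAP1 and TXNRD1, and 10.8% of all genes.

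The third comparison asks the same for VEGFA. KEAP1 and OSGIN1 were higher and GCLC lower in all anti-VEGFA libraries than in any OE-MMP28 library, and again none passed after adjustment. edgeR's quasi-likelihood test, adjusted by Benjamini-Hochberg, called 0 of 10, against 0.343% of all genes, and 3 of 10 passed an unadjusted p of 0.05, against 18.8% of all genes. Those 3 were also the members without overlap, against 18.1% of all genes. DESeq2 and limma voom called 0, where they called 3.28% and 0.436% of the genes they gave an adjusted p. Without OE-MMP28 replicate 3 the test called 1, OSGIN1, at a log2 fold change of 1.21 and an adjusted p of 0.0460, and 8.48% of all genes. Without OE-MMP28 replicate 2 it called 0 of 10, and 0.0486% of all genes, with OSGIN1 at 0.60 (adjusted p = 0.526 by edgeR's quasi-likelihood test) and KEAP1 at 0.17 (0.619).

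KEAP1 was at 72.7, 78.4 and 78.6 CPM with anti-VEGFA, a log2 fold change of 0.36 (SE 0.15, 95% interval 0.04 to 0.68) against OE-MMP28. GCLC was at 119, 113 and 116 CPM, a log2 fold change of -0.26 (SE 0.12, 95% interval -0.51 to -0.01). OSGIN1 was at 2.20, 3.24 and 2.24 CPM, a log2 fold change of 0.85 (SE 0.33, 95% interval 0.16 to 1.54). The adjusted p-values of these 3 by edgeR's quasi-likelihood test were 0.221, 0.242 and 0.187.

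The other members overlapped between anti-VEGFA and OE-MMP28. NFE2L2 was at 132, 149 and 168 CPM, a log2 fold change of -0.21 (95% interval -0.55 to 0.14). TXN was at 91.8, 157 and 134 CPM, where replicate 1 lay under every control library. SRXN1 was at 2.67, 0.25 and 1.55 CPM, so that 1 group held both its highest and its lowest level of the series. GCLM, TXNRD1, NQO1 and HMOX1 had log2 fold changes of -0.26, -0.19, -0.12 and 0.19.

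The direct test between the antibodies called 0 of 10 by edgeR's quasi-likelihood test, against 0.199% of all genes, and 1 at an unadjusted p of 0.05, NFE2L2, against 15% of all genes. DESeq2 and limma voom called 0, where they called 1.5% and 0.193% of the genes they gave an adjusted p. Libraries did not overlap for NFE2L2 and HMOX1, 2 of 10, against 20.9% of all genes. NFE2L2 was higher with anti-VEGFA than with anti-IL-8 by 0.39 on the log2 scale (95% interval 0.05 to 0.73, adjusted p = 0.282 by edgeR's quasi-likelihood test). For KEAP1 the difference was -0.14 (95% interval -0.46 to 0.18) and for OSGIN1 -0.03 (95% interval -0.69 to 0.62).

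**Figure D4:**
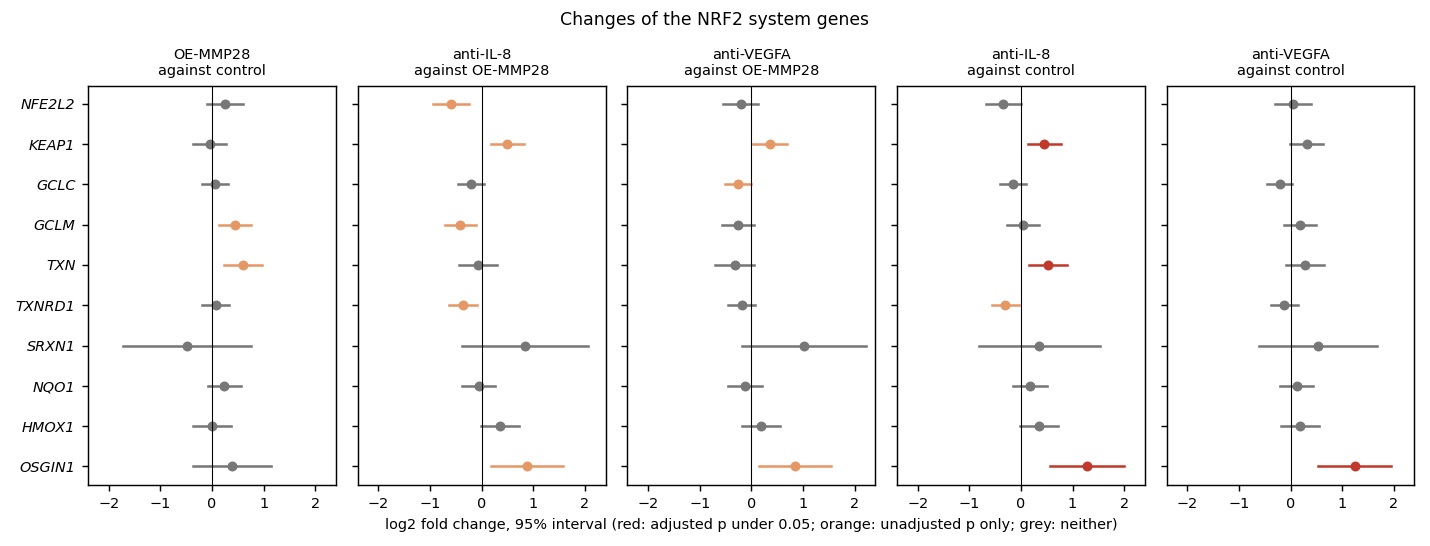
Log2 fold changes of the 10 genes with 95% intervals in 5 comparisons, red where the adjusted p is under 0.05, orange where only the unadjusted p is, grey otherwise. Red appears only in the comparisons of the antibody groups with the control group, for KEAP1, TXN and OSGIN1.

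Against the control group the antibody groups differ in the cancer cells and in the antibody at once, so these comparisons cannot tell the 2 apart, and both use the same control libraries. With anti-IL-8, OSGIN1, KEAP1 and TXN rose: 3 of 10 were called by edgeR's quasi-likelihood test, adjusted by Benjamini-Hochberg, all higher, where 20.7% of all genes were called and 9.77% as higher. With anti-VEGFA 1 of 10 was called, OSGIN1, where 11% of all genes were called and 5.6% as higher. At an unadjusted p of 0.05 the counts were 4, against 35.9% of all genes, and 1, against 27%. Libraries did not overlap for 6 of 10 genes with anti-IL-8, against 47.8% of all genes, and for 4 of 10 with anti-VEGFA, against 34.3%.

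OSGIN1 was at 0.65, 1.21 and 1.36 CPM in the control group, under every library of both antibody groups. Its log2 fold change was 1.28 with anti-IL-8 (SE 0.34, 95% interval 0.56 to 1.99, adjusted p = 0.0159) and 1.24 with anti-VEGFA (SE 0.34, 95% interval 0.53 to 1.96, adjusted p = 0.0265), both by edgeR's quasi-likelihood test. Control replicate 1 was the lowest library, and without it the log2 fold changes were 1.02 (adjusted p = 0.0708) and 0.98 (adjusted p = 0.124). The anti-VEGFA call was also lost without control replicate 2 (adjusted p = 0.0736) or anti-VEGFA replicate 2 (adjusted p = 0.0816), and the anti-IL-8 call without anti-IL-8 replicate 3 (adjusted p = 0.0524).

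KEAP1 was higher than in the control group by 0.45 on the log2 scale with anti-IL-8 (SE 0.15, adjusted p = 0.0453 by edgeR's quasi-likelihood test), and TXN by 0.52 (SE 0.18, adjusted p = 0.0438). Both calls stood just under the threshold. They were lost with library totals in place of TMM scaling (adjusted p = 0.0855 for KEAP1 and 0.0553 for TXN) and without any 1 of control replicates 1 to 3, OE-MMP28 replicate 1 or anti-IL-8 replicates 1 and 2; leaving out anti-IL-8 replicate 3 ended that of KEAP1, and anti-VEGFA replicate 3 that of TXN. Over the libraries left out in turn the log2 fold change of KEAP1 ranged from 0.38 to 0.52. With anti-VEGFA, KEAP1 was higher by 0.31 (95% interval -0.01 to 0.64) and TXN by 0.28 (95% interval -0.09 to 0.65), and neither was called.

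NFE2L2 and TXNRD1 were lower with anti-IL-8 than in every control library, by a log2 fold change of -0.34 (95% interval -0.69 to 0.00, adjusted p = 0.142 by edgeR's quasi-likelihood test) and -0.30 (95% interval -0.57 to -0.03, adjusted p = 0.0993). HMOX1 was above every control library, by 0.35 (95% interval -0.02 to 0.72, adjusted p = 0.164 by edgeR's quasi-likelihood test). The summed level of macrophage markers moved with these comparisons: every anti-IL-8 and anti-VEGFA library was above every control library, and CD14, which had the most counts in the list in every library, rose by 1.07 and 0.88 on the log2 scale. The rest of the list did not move as one. Of the 8 tested, 3 were called higher and 1 lower with anti-IL-8, against 9.77% and 10.9% of all genes, with a median of 0.21. With anti-VEGFA 3 had values above 0 and 5 below, with a median of -0.12. CD14 was the 1 called with anti-VEGFA, where 11% of all genes were called.

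OSGIN1 had the widest range between group means among the 10 genes, 1.25 on the log2 scale, against 0.24 for NQO1 at the low end. SRXN1 was next at 0.81. These 2 genes also had the fewest counts of the 10, at 11 to 51 for OSGIN1 and 4 to 45 for SRXN1 per library. Of 8252 protein-coding genes with a mean of at least 10 CPM, the 5 whose centred log2 CPM lay closest to that of OSGIN1 over the 12 libraries were NPEPL1, GFER, CORO7, TIMM17B and HSPA1A. Their root mean square difference from OSGIN1 was 0.25 to 0.28 on the log2 scale. NPEPL1 had means of 8.87 CPM in the control group, 9.13 in OE-MMP28, 15.4 in the anti-IL-8 group and 14.3 in the anti-VEGFA group. HSPA1A shares nearly all its sequence with HSPA1B, so its reads are uncertain.

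The wider NRF2 network was given by 6 lists of 61 further genes, of which 56 were tested. GPX2, AKR1B10, AKR1C2, AKR1C3 and ALDH3A1, among them classical NRF2 targets of epithelia, had at most 11 counts in any library and were not tested. In OE-MMP28 against control 1 of 56 rose and 2 fell by edgeR's quasi-likelihood test, where 0.523% of all genes rose and 2.64% fell. UGDH, which makes UDP-glucuronic acid, fell by 0.44 (SE 0.11, adjusted p = 0.0262), from 164 ± 2.70 to 120 ± 7.14 CPM (SD, n = 3), and BLVRA, biliverdin reductase A, fell by 0.64 (SE 0.17, adjusted p = 0.0462), from 19.4 ± 2.70 to 12.4 ± 0.917 CPM.

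In OE-MMP28 against control 3.16% of all genes were called. By list, this comparison gave 0 of 13 regulators of NRF2 called, with a median log2 fold change of -0.01. Of 11 tested genes of the glutathione system 0 were called, with a median of 0.09. Of 4 genes of the thioredoxin and peroxiredoxin system 0 were called, with a median of 0.30. Quinone and carbonyl detoxification had 1 of 13 called, UGDH, with a median of 0.05, and heme and iron 1 of 9, BLVRA, with a median of 0.05. NADPH supply had all 6 values above 0 and a median of 0.35, against 0.02 over all genes tested. Antioxidant enzymes outside the NRF2 list had 0 of 10 called, with a median of 0.15, and the phagocyte NADPH oxidase 0 of 7, with a median of 0.22. At an unadjusted p of 0.05, 13 of the 56 network genes were higher and 4 lower, against 5.93% and 8.61% of all genes. The lists were chosen with earlier results of these data known. Counts from them, here and below, therefore do not test for an excess over all genes. The count of 3 called network genes fell to 0 without control replicate 2 or without OE-MMP28 replicate 1, where 1.81% and 2.07% of all genes were called. Without OE-MMP28 replicate 2 the count was 5, where 3.12% of all genes were called.

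Against OE-MMP28, 0 of the 56 network genes were called with either antibody by edgeR's quasi-likelihood test. At an unadjusted p of 0.05, 11 were higher and 7 lower with anti-IL-8, against 13.4% and 15.9% of all genes. With anti-VEGFA 3 were higher and 2 lower, against 10.4% and 8.44%. DESeq2 called 13 under IL-8 neutralization and 1 under VEGFA neutralization, where it called 22.8% and 3.28% of the genes it gave an adjusted p. With limma voom 0 were called in either, against 0% and 0.436% of all genes. Without OE-MMP28 replicate 3 edgeR's test called 25 and 5, against 25% and 8.48% of all genes. The median log2 fold change of the 56 was 0.11 under IL-8 neutralization and -0.03 under VEGFA neutralization, against -0.02 and 0.00 over all genes. Between the antibodies edgeR's test, DESeq2 and limma voom called 0 of the 56, where they called 0.199%, 1.5% and 0.193% of all genes. At an unadjusted p of 0.05, 9 of the 56 passed edgeR's test, against 15% of all genes.

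Against control, 14 of the 56 were higher and 7 lower with anti-IL-8, at an adjusted p of 0.05, where 9.77% and 10.9% of all genes were. With anti-VEGFA 4 were higher and 4 lower, where 5.6% and 5.37% of all genes were. Leaving out 1 library moved the 21 calls to between 7 (without control replicate 3) and 23 (without OE-MMP28 replicate 2). Of all genes 8.48% and 26.2% were called in these 2 settings. The 8 calls moved to between 2 (without control replicate 2 or anti-VEGFA replicate 3) and 13 (without OE-MMP28 replicate 2 or 3). Of all genes 4.02% and 6.7% were called in the former settings, and 15.7% and 14.9% in the latter. The genes named here from these comparisons were chosen after their values were seen. Of 13 regulators 2 were called higher and 3 lower with anti-IL-8, and only some are named here. The log2 fold changes of the 13 ran from -0.68 to 0.56. Among regulators, CUL3, the scaffold of the ligase that KEAP1 serves, fell with anti-IL-8 by 0.62 on the log2 scale. BACH1, a repressor that competes with NRF2 for its elements, fell by 0.68, while MAFF, a small MAF partner, rose by 0.41. SLC7A11, the cystine importer, fell by 0.69 under IL-8 neutralization and by 0.57 under VEGFA neutralization, whereas GPX4, which reduces lipid peroxides, rose by 0.70 and 0.53.

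The called genes of NADPH supply were all higher, 4 of 6 in the anti-IL-8 group and 2 of 6 in the anti-VEGFA group. Of all genes 9.77% and 5.6% were called higher. TKT, a transketolase, rose by 0.74 and 0.49. UGDH fell by 0.85 and 0.62, and BLVRA by 0.69 and 0.78. Of 10 tested antioxidant enzymes outside the NRF2 list 6 were called higher with anti-IL-8, against 9.77% of all genes, with a median of 0.48. With anti-VEGFA 0 of 10 were called, against 11% of all genes. CYBA, a subunit of the phagocyte oxidase, was the 1 of 7 oxidase genes called with anti-IL-8, higher by 0.90, where 20.7% of all genes were called. With anti-VEGFA 0 of 7 oxidase genes were called, against 11%.

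**Figure D5:**
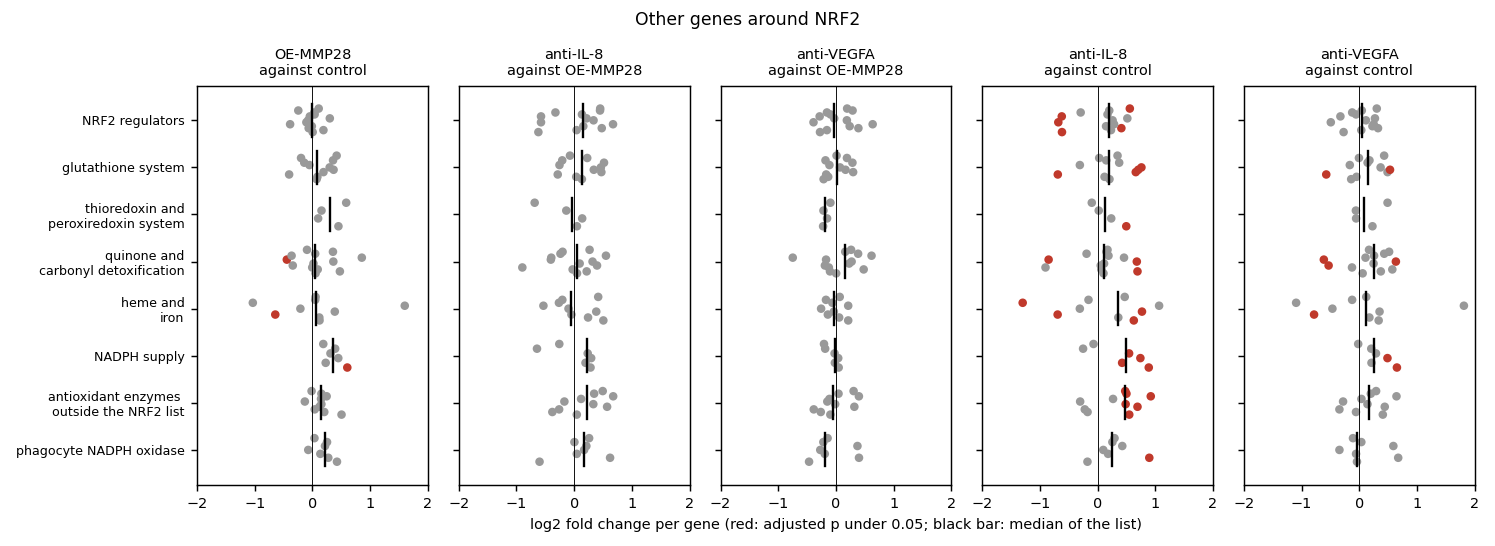
Log2 fold change of each tested gene in the 6 network lists and 2 comparison lists, 1 point per gene, red at an adjusted p under 0.05, with the list median as a black bar. NADPH supply lies to the right of 0 in OE-MMP28 against control for all 6 genes, and most red points lie in the panel of anti-IL-8 against control.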

How the data were processed

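The authors aligned the reads with HISAT2 2.0.5 and counted them per gene with featureCounts 1.5.0-p3, per the processing notes. The deposited table held their raw read counts and FPKM of 58735 genes, whose starts and ends all equalled those of GENCODE 29 on GRCh38. The deposited FPKM were proportional to count over gene length in each library and were used for levels between genes. The count analysis used edgeR 4.0.16 in R 4.3.3. The filter on low counts was filterByExpr on group (16046 genes left), libraries were scaled by TMM, and 1 quasi-likelihood fit to all 12 libraries gave each comparison, with Benjamini-Hochberg adjustment over all genes tested. Reported log2 fold changes are those of the fit, with edgeR's prior count of 0.125. Alternatives were DESeq2 1.42.0, voom and limma 3.58.1 on log2(FPKM + 1) or log2(FPKM + 0.1), other scaling and filters, covariates, and leaving out each library. The scripts were tested on simulated counts. The deposited fold changes and p-values of the authors' own comparisons were not used. SOD2 has 2 rows in the table, and the row with more counts was used.

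Named genes were the 10 members, up to 2 genes per direction with the largest called change from each other list, in OE-MMP28 against control and each antibody against OE-MMP28, and the 5 genes most like the member with the widest range. The members and lists were chosen with earlier results of these data known. Low counts limit the precision of SRXN1 and OSGIN1. SRXN1 also spread widely between libraries of a group, at 45, 4 and 29 counts with anti-VEGFA. One gene that the rule names is not reported here.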

Additional observations from a re-analysis of the deposited data

How the results depend on the processing

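With DESeq2, 1 of 10 genes was called in OE-MMP28 against control and 4 in anti-IL-8 against OE-MMP28, where 4.47% and 22.8% of the genes with an adjusted p were. Without a filter on low counts the numbers were 1 and 2, against 2.05% and 4.18% of all genes. At an unadjusted p of 0.05 they were 2 and 5, with 3 in anti-VEGFA against OE-MMP28 and 1 between the antibodies. Of all genes 14.5%, 29.3%, 18.8% and 15% passed in these 4 comparisons. With only the 2 groups compared, 1 gene (TXN) was called in OE-MMP28 against control and 6 in anti-IL-8 against control, against 3.25% and 39.8% of all genes. The latter comparison, with 3 calls as reported, kept 1 (OSGIN1) with library totals in place of TMM, where 18.3% of all genes were called. It kept 1 with log2(FPKM + 1) or log2(FPKM + 0.1), against 17.2% and 17.1% of all genes. Without the filter on FPKM it kept 0, against 3.71% of all genes, and anti-VEGFA against control also had 0, against 2.4%. With the mitochondrial share as a covariate 3 genes were called in anti-IL-8 against OE-MMP28 and 0 in anti-VEGFA against control, against 10.8% and 10.3% of all genes. The cause of these differences was not tested.

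The labels number the libraries 1 to 3 in each group. The correlation of the deviations of same-numbered libraries was -0.16 to 0.24, so the numbers were not taken to pair the samples. With the replicate block 1 gene, NFE2L2, was called in anti-IL-8 against OE-MMP28, and over all genes that comparison had 795 calls with the block and 0 without.

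Leaving out 1 library at a time gave 0 to 1 called genes in OE-MMP28 against control, 0 to 6 in anti-IL-8 against OE-MMP28, 0 to 1 in anti-VEGFA against OE-MMP28, 0 to 4 in anti-IL-8 against control, 0 to 1 in anti-VEGFA against control and 0 between the antibodies. In the same order, the share of all genes called was 1.79% to 3.89%, 0% to 25% and 0.0486% to 8.48%, then 7.94% to 26.2%, 4.02% to 15.7% and 0.0181% to 0.68%.

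Some directions reversed. In OE-MMP28 against control HMOX1 was 0.0030 with the 2 groups only and SRXN1 0.035 with the mitochondrial covariate. GCLM in anti-IL-8 against control was -0.037 with library totals. SRXN1 between the antibodies was -0.21 with voom and -0.14 with log2(FPKM + 0.1). With 1 library left out the range of log2 fold changes crossed 0 for some values. In OE-MMP28 against control it was -0.15 to 0.14 for KEAP1, -0.037 to 0.13 for GCLC, -0.27 to 0.21 for HMOX1 and -0.027 to 0.17 for TXNRD1. Against OE-MMP28 it was -0.14 to 0.036 for NQO1 and -0.16 to 0.099 for TXN with anti-IL-8, and -0.35 to 0.0060 for NFE2L2 and -0.032 to 0.47 for HMOX1 with anti-VEGFA. Against control it was -0.11 to 0.12 for GCLM with anti-IL-8, and -0.032 to 0.13 for NFE2L2 and -0.16 to 1.03 for SRXN1 with anti-VEGFA. Between the antibodies it was -0.13 to 0.011 for GCLC, -0.18 to 0.027 for NQO1, -0.52 to 0.63 for SRXN1 and -0.26 to 0.059 for OSGIN1.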
